A study of Mus musculus with 6 samples.

Results

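The genes described here are the kallikreins, the Spink inhibitors and the serpins of the mouse, a set of secreted serine proteases and of the inhibitors that hold proteases in check. They were taken by name, as every gene symbol in the deposited lists that starts with Klk, Spink or Serpin and goes on with a number, with or without a letter before it. Serpinh1, a collagen chaperone, was left out. This gave 102 of the 24393 listed genes, namely 28 kallikreins, 12 Spink genes and 62 serpins.

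Kallikreins are trypsin-like or chymotrypsin-like proteases that are secreted as inactive precursors and activated by cleavage. In epithelia they cut adhesion proteins, activate the receptor PAR2 and activate each other, and in the salivary gland some release or bind growth factors. Spink proteins carry Kazal domains that block such proteases, and the product of Spink5 restrains the kallikreins of the skin. Serpins trap a protease by a change of shape after it has cut their reactive loop. Serpins of clade b lack a classical signal peptide and mostly act inside cells, whereas those of clades a, c and e are mostly secreted, act in plasma or at the cell surface and regulate elastase, clotting and plasminogen activation.

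RNA was measured in KH2 cells, a mouse embryonic stem cell line (strain label C57/BL/6) in which a cassette under doxycycline control can be placed at a fixed locus. The genotype label was CONTROL for 3 libraries and HOXA13 for the other 3, and the study's methods describe a FLAG-tagged human HOXA13 gene in the cassette, targeted clones and biological replicates in both groups. Whether each replicate was a clone of its own is not given in the sources used here. The treatment text is the same for both groups: cells were differentiated towards endoderm on M15 feeder cells of mesodermal origin in a medium with Activin-A, Noggin, CHIR and a fibroblast growth factor, doxycycline was given at 1.25 µg/ml from day 4, and a sort on day 6 kept those with surface CXCR4 as well as E-cadherin, which had another day in doxycycline. The comparison of HOXA13 with CONTROL asks which genes differ between these sorted cells with and without the transgene.

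The libraries held 12279884 to 17331638 counts, and the smallest level set as visible, 3 counts, equals 0.176 to 0.240 CPM, the read counts normalised to library size. The row with the human identifier of HOXA13 had 0 counts in each CONTROL library and 2497, 7666 and 6572 counts in HOXA13 replicates 1, 2 and 3. Of 15 definitive endoderm markers 14 had counts, among them Cxcr4, Sox17 and Foxa2, at a summed level of 156 to 196 CPM across CONTROL and 82.5 to 124 CPM across HOXA13. The sums do not stand for every marker: of 11 tested, 5 were higher and 6 lower in HOXA13, 1 of the latter without overlap. Their median log2 fold change was -0.02, and edgeR called 0. CONTROL replicate 2 stood apart from the other CONTROL libraries. Its 15 mesenchyme markers summed to 821 CPM, against 9011 and 6298 CPM in CONTROL replicates 1 and 3, and its 17 simple epithelium markers summed to 8393 CPM, against 2282 and 5713 CPM. In the HOXA13 libraries the same lists summed to 379 to 1452 CPM and to 10538 to 12369 CPM. The markers of pluripotent cells were also highest in CONTROL replicate 2, at 188, 1490 and 245 CPM across CONTROL replicates 1 to 3, against 492 to 803 CPM across HOXA13. Extraembryonic endoderm markers were lower in HOXA13 in 12 of 12 tested (3 without overlap) and mesonephric feeder markers in 9 of 9 (3 without overlap). Trophoblast markers, which share Krt8 and Krt18 with the simple epithelium list, were higher in 7 of 9 (3 without overlap). By edgeR 0 of these markers were called, beside 0.309% of all genes tested. Of all tested genes 11.5% were higher and 8.52% lower without overlap. The part of these cell types in the differences between members was not tested. Genes of chromosome 1 were higher in HOXA13 as a whole, by a median of 0.54 on the log2 scale, so the serpins of that chromosome are also given with this shift taken off. Where 3 values of a group are listed, they stand in the order of replicates 1 to 3.

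Most of the 102 genes were silent or close to it. No read was counted in any library for 47 of them, which at this depth allows up to the level of 3 counts, and 33 more had too few reads for the test. The remaining 22 were tested, namely 5 kallikreins, 2 Spink genes and 15 serpins. Klk15 and Spink6 were higher in HOXA13 (edgeR quasi-likelihood test, Benjamini-Hochberg adjusted p under 0.05), and 0 members were lower. Both calls are close to the threshold. With the chromosome shifts taken off, the edgeR adjusted p was 0.0650 for Klk15 and 0.0666 for Spink6. Their log2 fold changes, 7.76 and 6.76, were then about as with all shifts left in (7.74 and 6.74). The fit with the shifts taken off called 1 of all 13600 genes, against 42 with the shifts left in. Among all 13600 genes tested 36 were called higher, 6 lower and 42 in either direction, which is 0.265%, 0.0441% and 0.309% of them. DESeq2 called 5 of the 32 members to which it gave an adjusted p, against 5.05% of 14298 genes, and these were Klk15, Klk1b22, Spink6 and Serpinb7, all higher, and Serpinb9b, which was lower. In edgeR 7 of the 22 tested members had an unadjusted p under 0.05, as had 1914 of all 13600 genes. The groups did not overlap in 6 members that were higher and 3 that were lower, where 11.5% and 8.52% of all tested genes are higher or lower in that way. Klk15, Klk1b22, Spink6 and Serpinc1 passed the filter on low counts through the HOXA13 libraries alone. The share of tested members that changed therefore says little about the families.

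**Figure D1:**
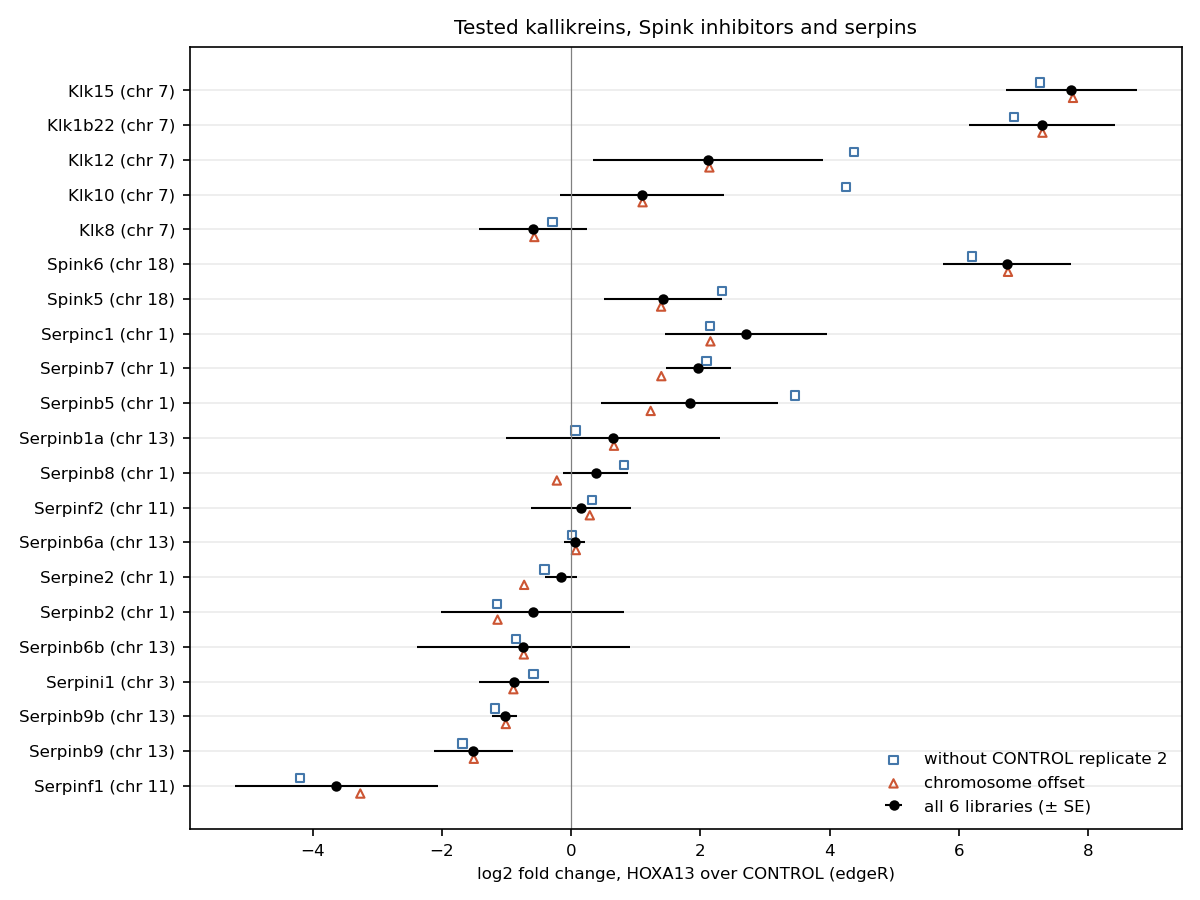
Log2 fold change of HOXA13 over CONTROL for tested members, grouped by family (black points, edgeR fit over all 6 libraries, bars ± SE; squares, fit without CONTROL replicate 2; triangles, fit with a chromosome offset; chr, chromosome). Klk15, Klk1b22 and Spink6 lie above 6, and the plotted serpins lie on both sides of 0, between -3.63 and 2.71.

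The kallikreins as a family were few in CONTROL libraries 1 and 3 and more abundant in all others. Their summed level was 7.45, 40.5 and 7.57 CPM across CONTROL replicates 1 to 3 and 54.6, 34.2 and 46.2 CPM across HOXA13 replicates 1 to 3. The HOXA13 sums lay on both sides of CONTROL replicate 2. In that CONTROL library Klk10 and Klk8 made up most of the sum, whereas Klk15 and Klk1b22 were at 0 there, so the similar sum is of another composition. The median log2 fold change over the 5 tested kallikreins was 2.12, beside -0.01 over all genes tested, but Klk15 and Klk1b22 entered the test through their HOXA13 counts alone, and without a filter the median was 0.67. Of the 5 tested, only Klk15 was called, and 4 were higher and 1 lower.

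**Figure D2:**
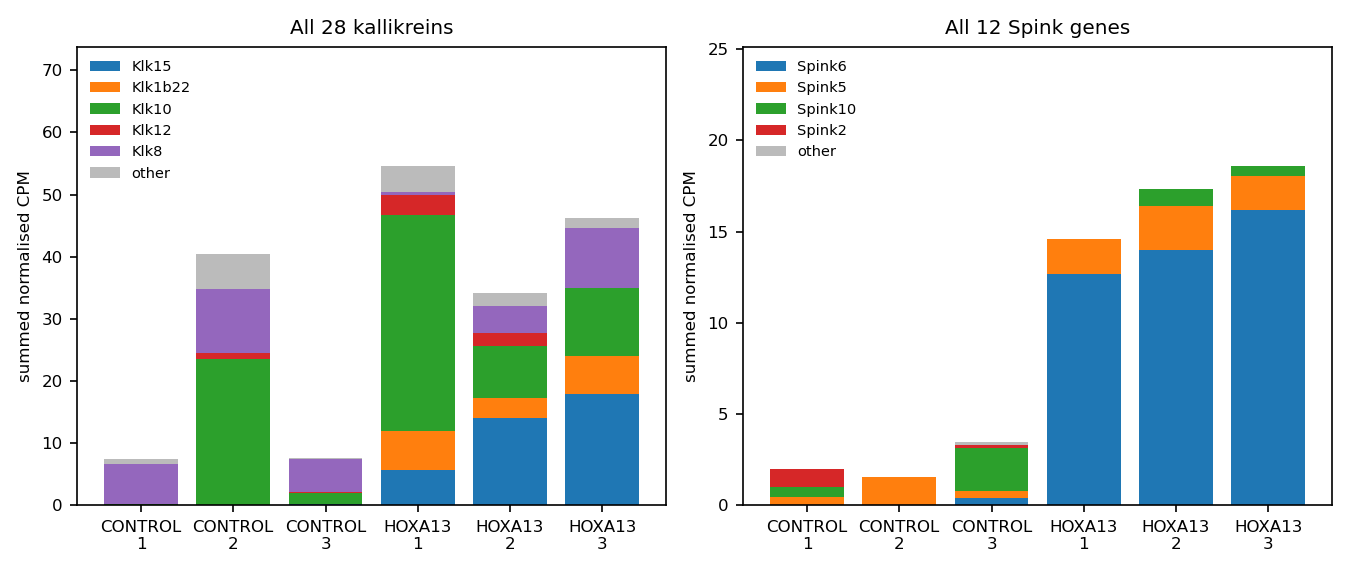
Summed normalised CPM of all 28 kallikreins (left) and all 12 Spink genes (right) in each library, stacked by gene, with the remaining members in grey. Klk15, Klk1b22 and Spink6 appear in the HOXA13 libraries, and Klk10 fills most of the kallikrein sum of CONTROL replicate 2.

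Klk15, a secreted kallikrein of glandular epithelia, was all but absent from CONTROL. It had 0, 0 and 2 reads in CONTROL replicates 1, 2 and 3 and 74, 240 and 294 reads in the HOXA13 replicates, which is 5.69, 14.1 and 17.8 CPM across HOXA13. Every HOXA13 library lay above every CONTROL library, and the lowest of them was HOXA13 replicate 1. The mean rose from 0.05 ± 0.0866 to 12.5 ± 6.21 CPM (SD, n = 3 each), and the fitted log2 fold change was 7.74 (SE 1.01, edgeR adjusted p = 0.0461). Since the CONTROL total is 2 reads, the size of the increase is poorly fixed: the ratio of the pooled counts was 261, with a counting interval of 71.9 to 2157. The adjusted p was 2.77e-08 in DESeq2. In edgeR it missed the threshold, at 0.0622 to 0.328, when any library other than CONTROL replicate 2 was left out, with log2 fold changes of 7.18 to 10.5. Each of those fits called only 0 to 7 genes in all. Without CONTROL replicate 2 the edgeR adjusted p was 0.00310, and 2006 of 14084 genes were called. Klk15 lies on chromosome 7, at 51189141 to 51194960 on the plus strand (build mm9), and no 50-base stretch of its transcripts occurs in another annotated transcript.

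Klk1b22 encodes a kallikrein known as an epidermal growth factor-binding protein, and it was the only member of the Klk1b group with more than 4 reads in total. It had 0, 0 and 1 reads in CONTROL and 81, 55 and 103 reads in HOXA13 (6.22, 3.22 and 6.24 CPM), so the groups were far apart in each library. The mean was 0.025 ± 0.0433 CPM across CONTROL and 5.23 ± 1.74 CPM across HOXA13. The log2 fold change of 7.28 (SE 1.13) missed the threshold in edgeR (adjusted p = 0.0521). It passed in DESeq2 (adjusted p = 1.66e-05) and without CONTROL replicate 2 (edgeR adjusted p = 0.00703). The edgeR adjusted p was 0.135 to 0.411 without any other single library and 0.0678 with the chromosome shifts taken off. The ratio of the pooled counts was 205, with a counting interval of 36.4 to 8128. The gene lies at 51368043 to 51372292 on the plus strand of chromosome 7 (mm9), 179 kb beyond the start of Klk15. Of its 50-base stretches 13.3% are shared with near-identical relatives, so its count is uncertain in that part. Of the 14 Klk1b genes 12, the pseudogene Klk1b7-ps included, had 0 reads in all libraries, which may hide reads that align to several copies. The other one with reads was Klk1b3, with 4 reads in CONTROL replicate 1. Klk1, the tissue kallikrein that frees kinins, had 0 reads.

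The sequences just before the transcription start are shown for Klk15 and Klk1b22, the kallikreins whose reads came almost all from HOXA13 libraries. They are also shown for Klk1b9, a gene with 0 reads whose promoter is closest to that of Klk1b22. They are the 250 bases before the RefSeq start in build GRCm38.p6, all on the plus strand, a build other than the mm9 of the counts. In Klk15 (chr7:43931425-43931674) the capitals mark the letters TATAAA, which begin 30 bases before the start. In Klk1b22 (chr7:44112423-44112672) and Klk1b9 (chr7:43975811-43976060) the capitals mark the 24 aligned positions at which the genes differ.
Klk15: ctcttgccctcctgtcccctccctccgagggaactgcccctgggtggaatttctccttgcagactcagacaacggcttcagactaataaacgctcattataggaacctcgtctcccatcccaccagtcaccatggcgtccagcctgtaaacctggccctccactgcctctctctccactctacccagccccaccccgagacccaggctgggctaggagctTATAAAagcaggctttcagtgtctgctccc
Klk1b22: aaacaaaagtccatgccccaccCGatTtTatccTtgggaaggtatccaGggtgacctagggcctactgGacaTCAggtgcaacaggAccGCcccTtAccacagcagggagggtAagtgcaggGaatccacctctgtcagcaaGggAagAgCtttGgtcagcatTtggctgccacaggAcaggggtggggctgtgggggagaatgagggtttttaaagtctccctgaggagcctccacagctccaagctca
Klk1b9: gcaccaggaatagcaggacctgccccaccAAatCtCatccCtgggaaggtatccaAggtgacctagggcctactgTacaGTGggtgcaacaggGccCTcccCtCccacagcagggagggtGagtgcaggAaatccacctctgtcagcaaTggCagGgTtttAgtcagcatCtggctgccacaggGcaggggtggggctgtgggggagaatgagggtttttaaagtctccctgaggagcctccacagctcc

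Over the 230 aligned positions 206 were identical between Klk1b22 and Klk1b9, which is 89.6%, and Klk1b9 also encodes an epidermal growth factor-binding protein. The other Klk1b promoters with 200 or more aligned positions were 76.3% to 84.3% identical to that of Klk1b22, and each of these genes had 0 reads except Klk1b3. The letters CAATAAA and TCGTAAA, which resemble sequences bound by posterior Hox proteins, were searched on both strands of the 92 RefSeq windows of 79 member genes. Neither was found in any of them, whereas 4.20% and 0.478% of the 32851 windows of this length in the table hold them. Of the Spink genes only Spink2 had a window, so Spink6 and Spink5 were not searched. The absence says only that these letters are not in these 250 bases of the 79 genes.

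Klk15 and Klk1b22 stood out within their own cluster. The 27 kallikrein genes of chromosome 7 span 539 kb, from Klk14 to Klk1 (50945788 to 51484987, mm9), and 15 of them had no read, among them Klk4 and Klk5, which precede Klk15, and 12 of the 14 Klk1b genes that follow it. Within 1000 kb on each side of Klk15, 55 genes that are not members are listed, and 33 of these were tested. None was called, beside 0.309% of all genes tested. Without overlap 1 was higher and 5 were lower, where 11.5% and 8.52% of all tested genes are higher or lower in that way. The log2 fold changes of the 33 ran from -3.38 to 3.12.

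**Figure D3:**
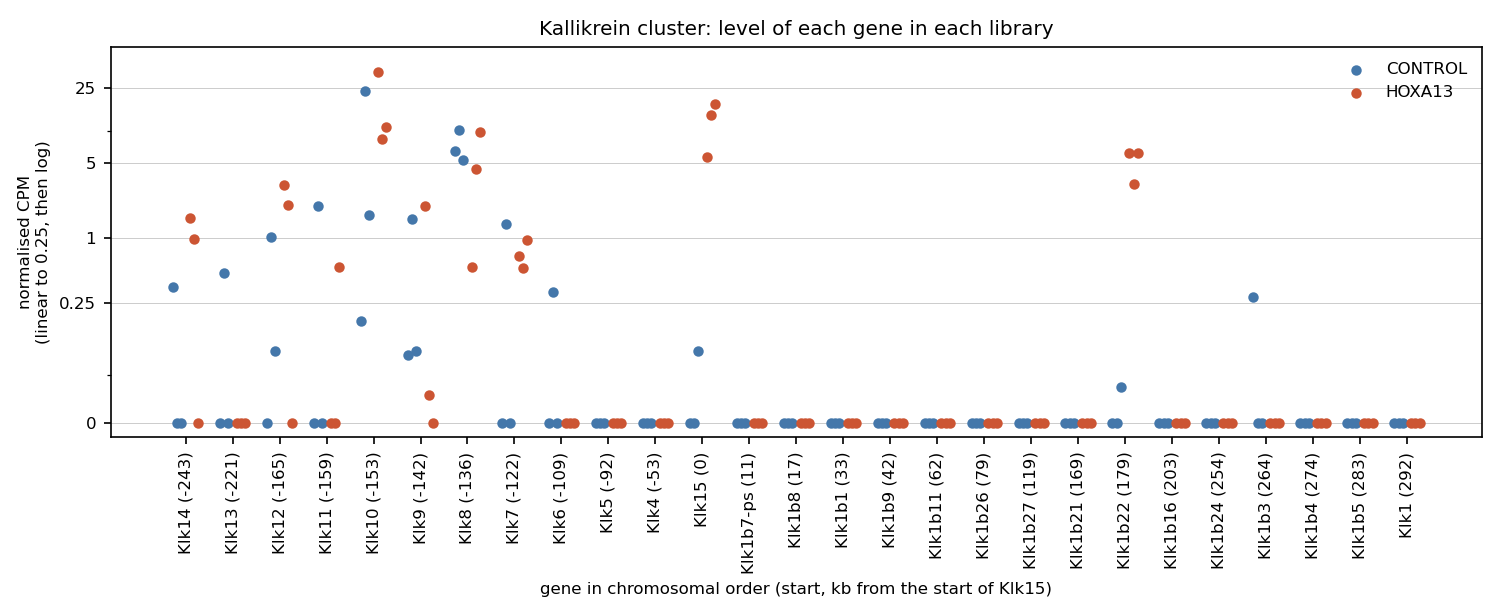
Normalised CPM (linear to 0.25, then a log scale) of the 27 kallikrein genes of chromosome 7 in chromosomal order, with the distance of each start from that of Klk15 in kb; each point is 1 library. Klk15 and Klk1b22 have HOXA13 points above 3 CPM and CONTROL points at or near 0, while Klk10, Klk12 and Klk8 have overlapping groups.

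Klk10 was the most abundant kallikrein by its mean over all libraries, and it varied as much within the groups as between them. It had 0.213, 23.5 and 1.65 CPM across CONTROL replicates 1 to 3 and 34.8, 8.38 and 10.9 CPM across the HOXA13 replicates. CONTROL replicate 2 thus lay above HOXA13 replicates 2 and 3. The log2 fold change was 1.09 (SE 1.27, edgeR adjusted p = 0.772), and without CONTROL replicate 2 it was 4.25 (edgeR adjusted p = 0.0178). It was 0.18 without HOXA13 replicate 1, and 0.49 and 0.58 without CONTROL replicates 1 and 3, so it depended on single libraries in both directions. CONTROL replicate 2 is the CONTROL library with the highest summed epithelial and the lowest summed mesenchyme markers. The part of these markers in the level of Klk10 was not tested.

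Klk8, the trypsin-like protease neuropsin of brain and skin, had 6.45, 10.2 and 5.40 CPM across CONTROL and 0.538, 4.39 and 9.70 CPM across HOXA13. The groups overlapped, with a log2 fold change of -0.59 (SE 0.84, edgeR adjusted p = 0.821). It was -0.075 without HOXA13 replicate 1 and -1.58 without HOXA13 replicate 3. Klk12, picked after its values were seen, had 0, 13 and 2 reads in CONTROL and 41, 35 and 0 in HOXA13 (log2 fold change 2.12, adjusted p = 0.670, and 4.38 without CONTROL replicate 2), so 1 HOXA13 library lacked it. An uncharacterised gene, 2310002F09Rik, lies over Klk8, Klk10 and Klk12 on the opposite strand, and whether the counts used strand is not given in the sources used here. Klk7, the chymotrypsin-like enzyme that cuts corneodesmosomes in the skin, was below the filter, with 0, 17 and 0 reads in CONTROL and 9, 9 and 16 in HOXA13. Klk5, the trypsin-like protease that activates it, had 0 reads.

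The other kallikreins were sparse. Klk14 had 5, 0 and 0 reads in CONTROL and 20, 17 and 0 in HOXA13. Klk9 had 2, 19 and 2 reads in CONTROL and 26, 1 and 0 in HOXA13, and Klk11 had 25 reads in CONTROL replicate 2, 9 in HOXA13 replicate 3 and none elsewhere. Klk13 and Klk6 had reads in CONTROL replicate 2 alone, 6 and 4 of them. Klkb1, the plasma kallikrein of the liver, had 9 reads in HOXA13 replicate 2 and none elsewhere. It lies on chromosome 8 apart from the others, and its annotation overlaps that of Cyp4v3 on the same strand, so these reads are of uncertain origin.

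The Spink genes held a single strong difference. Spink6, an inhibitor of epithelial kallikreins, had 0, 0 and 5 reads in CONTROL replicates 1, 2 and 3 and 165, 239 and 267 reads in the HOXA13 replicates. On the CPM scale CONTROL replicate 3 was at 0.375 and the HOXA13 replicates ran from 12.7 to 16.2, so the HOXA13 libraries lay close together and far above CONTROL. The mean rose from 0.125 ± 0.217 to 14.3 ± 1.77 CPM (SD, n = 3 each), with a log2 fold change of 6.74 (SE 0.99, edgeR adjusted p = 0.0470, DESeq2 adjusted p = 2.26e-12). The ratio of the pooled counts was 115, with a counting interval of 49.1 to 356. As for Klk15, the edgeR call rested on all libraries but 1: the adjusted p was 0.00302 without CONTROL replicate 2 and 0.124 to 0.353 without any other library, with log2 fold changes of 6.14 to 10.7 in the latter. With RLE scaling it was 0.0502. Spink6 lies on chromosome 18 at 44231047 to 44243264 (mm9, plus strand). Of 13 other genes within 1000 kb that are not members, 5 were tested and 0 called.

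Spink5, whose product LEKTI restrains Klk5, Klk7 and Klk14, starts 108 kb before Spink6 and differed far less. It had 0.426, 1.52 and 0.375 CPM across CONTROL and 1.92, 2.40 and 1.88 CPM across HOXA13. The groups did not overlap, but the difference did not pass the test (log2 fold change 1.41, SE 0.91, edgeR adjusted p = 0.554, and 2.33 without CONTROL replicate 2). Spink10 had 8, 0 and 32 reads in CONTROL and 0, 16 and 9 in HOXA13, with no order between the groups. Spink2, an inhibitor of sperm proteases, had 14, 0 and 2 reads in CONTROL and none in HOXA13, and Spink4 had 2 reads in all. The other 7, with Spink1, the trypsin inhibitor of the pancreas, among them, had 0 reads. The summed level of the 12 genes was 1.99, 1.52 and 3.45 CPM across CONTROL and 14.6, 17.3 and 18.6 CPM across HOXA13, most of which was Spink6. The median log2 fold change over the 2 tested genes was 4.08, but Spink6 entered the test through its HOXA13 counts alone, and without a filter the median was -1.01.

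Levels of different genes were compared per kilobase of exon. In HOXA13, Spink6 stood at 24.3 and Klk15 at 16.4 mean CPM per kilobase, beside 13.3 for Klk10, 6.12 for Klk1b22 and 3.69 for Klk8. In CONTROL the kallikreins with the highest values were Klk10 at 6.25, which rests on CONTROL replicate 2, and Klk8 at 5.57, while Spink6 and Klk15 were at 0.213 and 0.0654. On this scale Spink6 and Klk15 in HOXA13 came close to the intracellular serpins Serpinb6a (26.6) and Serpinb9b (19.2), and stayed below Serpine2 (64.1). The Klk15 libraries ran from 5.69 to 17.8 CPM and the Klk10 libraries from 8.38 to 34.8 CPM across HOXA13, so the order of these neighbours is within their spread.

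**Figure D4:**
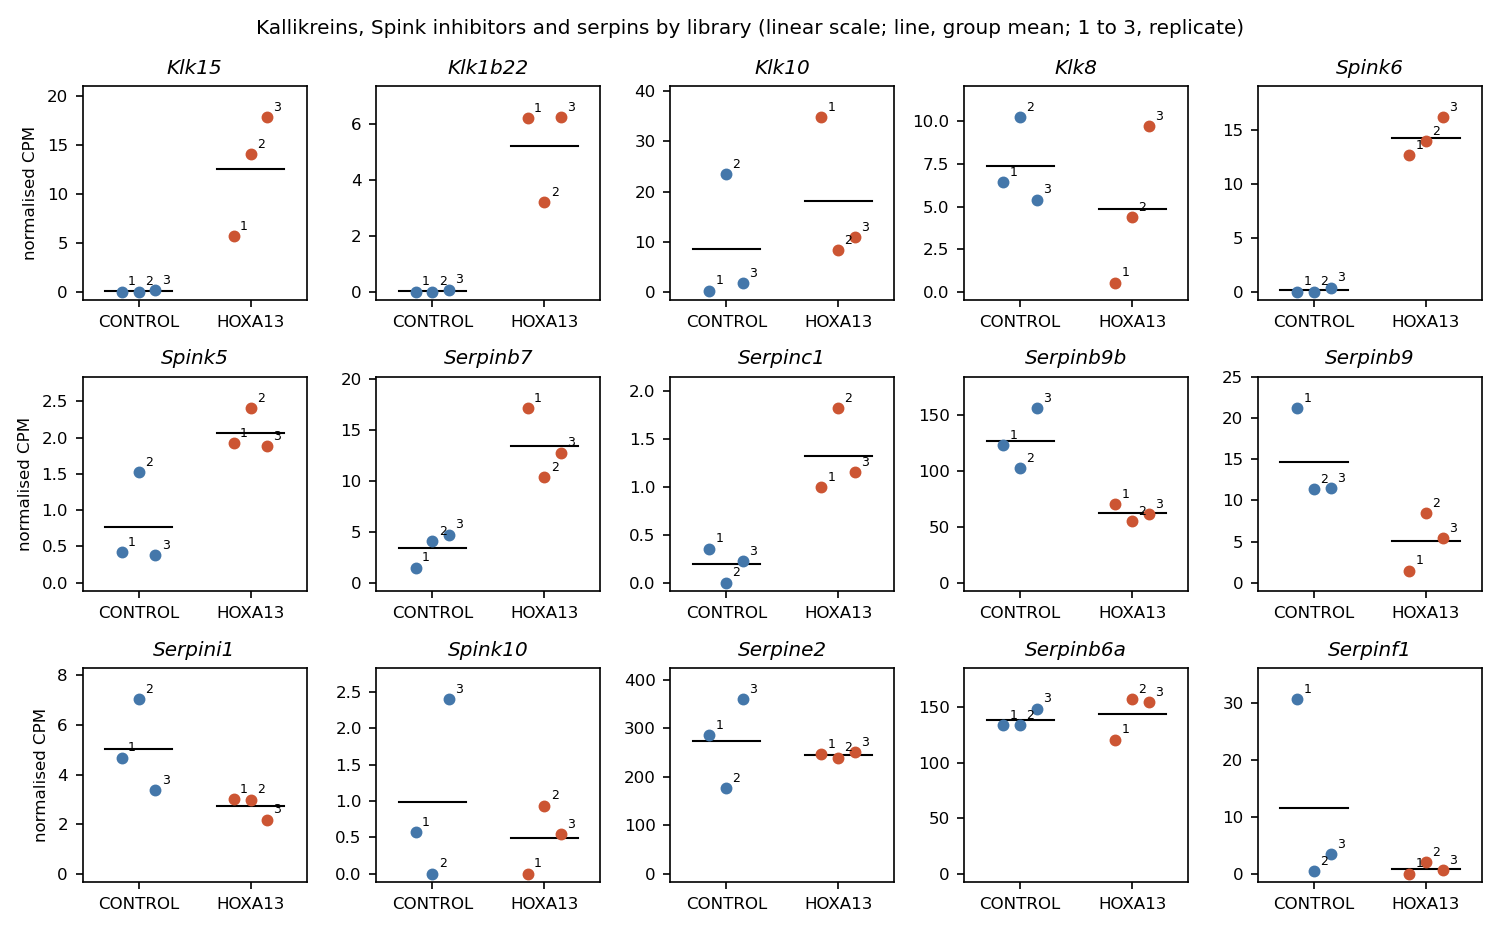
Normalised CPM on a linear scale of 15 members in the 3 CONTROL (blue) and 3 HOXA13 (red) libraries, each point labelled with its replicate number and each line the group mean. Klk15, Klk1b22 and Spink6 are near 0 in every CONTROL library, Serpinb7, Spink5 and Serpinc1 are higher and Serpinb9b, Serpinb9 and Serpini1 lower in HOXA13 without overlap, and Serpinf1 has 1 CONTROL library far above all others.

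None of the serpins passed the threshold in edgeR, where 4 of the 15 tested had an unadjusted p under 0.05, beside the 1914 of 13600 genes given before. Of these 15, 7 had higher and 8 lower values with HOXA13, and their median log2 fold change was -0.16. Serpinc1, which was higher, entered the test through its HOXA13 counts alone, and without a filter the median was -0.0067. DESeq2 called 2 of the serpins, Serpinb7 and Serpinb9b, in opposite directions.

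Serpinb7, also called megsin, is an epithelial clade b serpin needed in the outer skin. It had 21, 51 and 63 reads in CONTROL and 223, 177 and 211 in HOXA13, which is 1.49, 4.08 and 4.72 CPM against 17.1, 10.4 and 12.8 CPM. Each HOXA13 library held more than double the CPM of any CONTROL library. The log2 fold change was 1.97 (SE 0.50), with an adjusted p of 0.146 in edgeR, 0.0101 in DESeq2 and 0.0353 in edgeR without CONTROL replicate 2. Without any other single library the edgeR adjusted p was 0.272 to 0.532. Serpinb7 lies on chromosome 1 (109296232 to 109349266, mm9), and with the shift of that chromosome taken off the fold change was 1.39 (adjusted p = 0.281). How much of the difference belongs to the chromosome and how much to the gene was not tested further.

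Serpinb7 is 1 of 11 clade b serpins that lie together on chromosome 1, over 748 kb from Serpinb5 to Serpinb8. Of its neighbours Serpinb5 had a fold change of similar size with overlapping groups. Serpinb5, the tumour suppressor maspin, had 0.284, 1.12 and 0 CPM across CONTROL and 2.92, 1.52 and 0.606 CPM across HOXA13 (log2 fold change 1.83, adjusted p = 0.625, 1.23 with the chromosome shift taken off and 3.46 without CONTROL replicate 2). Serpinb8 had 13.3, 24.7 and 9.75 CPM across CONTROL and 35.8, 12.2 and 14.1 CPM across HOXA13, with a log2 fold change of 0.38 that became -0.22 with the chromosome shift taken off. Serpinb2, the plasminogen activator inhibitor PAI-2, had 139, 6 and 103 reads in CONTROL and 0, 157 and 45 in HOXA13, so both groups held libraries with many and with few reads (log2 fold change -0.59, adjusted p = 0.901, and -1.14 with the shift taken off). Serpinb13, an inhibitor of lysosomal cathepsins in stratified epithelium, had 0 reads in all 6 libraries. Serpinb5, Serpinb8 and Serpinb2 were picked after their values were seen. The 11 genes summed to 25.8, 31.6 and 22.8 CPM across CONTROL and 56.4, 33.3 and 31.2 CPM across HOXA13.

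The second clade b cluster, 15 genes over 1161 kb of chromosome 13, held Serpinb9b, the serpin that DESeq2 called lower. Serpinb9b had 1736, 1289 and 2085 reads in CONTROL and 914, 943 and 1019 in HOXA13, or 123, 103 and 156 CPM against 70.2, 55.2 and 61.8 CPM. All HOXA13 libraries lay below all CONTROL libraries and close to each other. The mean was 128 ± 26.9 CPM across CONTROL and 62.4 ± 7.52 CPM across HOXA13, with a log2 fold change of -1.03 (SE 0.20). The adjusted p was 0.0899 in edgeR, 0.000984 in DESeq2 and 0.00433 in edgeR without CONTROL replicate 2. Without any other single library it was 0.177 to 0.496 in edgeR.

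Serpinb9, a neighbour of Serpinb9b, is the inhibitor of granzyme B that shields cells from cytotoxic lymphocytes. It had 21.2, 11.4 and 11.5 CPM across CONTROL and 1.46, 8.49 and 5.40 CPM across HOXA13. The groups did not overlap, and the log2 fold change of -1.52 (SE 0.61) had an adjusted p of 0.316. The genes share 0.378% of the 50-base stretches of Serpinb9, so few reads could be exchanged between them. Serpinb6a, an intracellular inhibitor found in most tissues, was level: it had 133, 133 and 148 CPM across CONTROL and 121, 157 and 155 CPM across HOXA13 (log2 fold change 0.06, SE 0.16, adjusted p = 0.923). The remaining tested genes of the cluster, Serpinb1a and Serpinb6b, had libraries with 0 reads in HOXA13 and log2 fold changes of 0.65 and -0.74. The cluster summed to 286, 252 and 322 CPM across CONTROL and 195, 228 and 223 CPM across HOXA13.

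Serpinf1, which encodes the angiogenesis inhibitor PEDF and was picked after its values were seen, had 431, 6 and 46 reads in CONTROL and 0, 35 and 11 in HOXA13. CONTROL replicate 1 held most of its reads (log2 fold change -3.63, SE 1.57, adjusted p = 0.353, and adjusted p = 0.0431 without CONTROL replicate 2). The genes of chromosome 11, where Serpinf1 lies, had a median log2 shift of 0.38 in CONTROL replicate 1. With the chromosome shifts taken off the Serpinf1 value was -3.26 (edgeR adjusted p = 0.417). The summed mesenchyme markers were also highest in CONTROL replicate 1, at 9011, 821 and 6298 CPM across CONTROL and 379, 1452 and 1138 CPM across HOXA13. All 15 of these markers had reads, 14 were tested, 11 of those were lower in HOXA13 and 0 were called. Their part in the result was not tested, and in bulk RNA fewer cells of a type and less RNA per cell cannot be told apart. Serpine2, protease nexin-1, is an inhibitor of thrombin and of plasminogen activators at the cell surface. It had 286, 176 and 359 CPM across CONTROL and 246, 239 and 251 CPM across HOXA13. The HOXA13 libraries lay inside the range of CONTROL (log2 fold change -0.16, SE 0.25, adjusted p = 0.837). With the shift of chromosome 1 taken off the value was -0.73 (adjusted p = 0.238). Serpini1, the neuronal inhibitor neuroserpin, had 4.68, 7.04 and 3.37 CPM across CONTROL and 3.00, 2.99 and 2.18 CPM across HOXA13, lower without overlap, with a log2 fold change of -0.88 (SE 0.54, adjusted p = 0.533). Serpinf2, antiplasmin, had a log2 fold change of 0.16 (adjusted p = 0.956).

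The plasma serpins of the liver were close to absent. Of 25 clade a serpins, which include the antitrypsin and antichymotrypsin families, 15 had 0 reads, among them Serpina1a to Serpina1f, and none of the other 10 passed the filter. The clade a gene with the most reads in 1 library was Serpina3h, with 86 reads in HOXA13 replicate 2, beside 25 in CONTROL replicate 3 and 3 in HOXA13 replicate 3. These families contain near-identical copies, and how reads with several alignments were treated is not given in the sources used here, so a count of 0 may hide reads. Serpinc1, antithrombin, had 5, 0 and 3 reads in CONTROL and 13, 31 and 19 in HOXA13. The groups did not overlap, with 0 to 0.355 CPM against 0.999 to 1.82 CPM. The log2 fold change was 2.71 (SE 1.25, edgeR adjusted p = 0.388), and 2.15 with the shift of chromosome 1 taken off. Serping1, the C1 inhibitor, was below the filter, with 16, 7 and 39 reads in CONTROL and 0, 6 and 8 in HOXA13.

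The proteases, substrates and other inhibitors that work with these families were read from 5 lists. Together 47 of these genes were tested, and 1 was called. This was Htra1, a secreted serine protease, which was in the list of 13 epithelial trypsin-like proteases and fell. It had 73.1, 73.2 and 63.7 CPM across CONTROL and 27.5, 23.3 and 15.6 CPM across HOXA13 (log2 fold change -1.66, SE 0.25, edgeR adjusted p = 0.0470). The call of Htra1 was lost when any library other than CONTROL replicate 2 was left out, and without CONTROL replicate 2 edgeR called 20 of the pathway genes and 2006 of the 14084 genes then tested. Of the 9 tested genes of that list the other 8 were not called, though 7 had higher values with HOXA13. Tmprss13, a membrane-bound protease, had 1.13, 1.36 and 2.92 CPM across CONTROL and 11.6, 9.49 and 10.8 CPM across HOXA13 (log2 fold change 2.55, adjusted p = 0.0909). Prss12, the secreted neurotrypsin, had 0.709, 0 and 0.900 CPM across CONTROL and 4.53, 7.44 and 6.85 CPM across HOXA13 (log2 fold change 3.52, adjusted p = 0.186). Both were called by DESeq2, which called 4 of the list, beside 5.05% of all genes to which it gave an adjusted p.

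The substrates and receptors of kallikreins gave 0 calls among 7 tested genes in edgeR and 1 in DESeq2, which was Scnn1a. This subunit of the epithelial sodium channel, which is opened by proteolysis, had 0.993, 6.96 and 2.70 CPM across CONTROL and 18.2, 21.4 and 25.4 CPM across HOXA13, without overlap (log2 fold change 2.61, adjusted p = 0.127). F2rl1, which encodes PAR2, had 33.1, 133 and 74.2 CPM across CONTROL and 173, 149 and 147 CPM across HOXA13 (log2 fold change 0.97, adjusted p = 0.362). The skin substrate genes Dsg1a, Dsg1b and Dsc1 and the kininogen genes were below the filter, while Bdkrb1 had 0 reads.

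The targets of serpins and the plasminogen system gave 0 edgeR calls as well, among 8 and 10 tested genes. Casp8, the initiator caspase of death receptors, had 27.2, 25.5 and 20.4 CPM across CONTROL and 55.2, 56.8 and 69.7 CPM across HOXA13, without overlap, and came close to the threshold (log2 fold change 1.31, SE 0.21, adjusted p = 0.0566, DESeq2 adjusted p = 5.65e-05). Ctsk, cathepsin K, had 2.20, 1.12 and 3.52 CPM across CONTROL and 1.08, 0.820 and 0.970 CPM across HOXA13 (log2 fold change -1.25, adjusted p = 0.565). In the plasminogen list the endocytic receptor gene Lrp2 was lower without overlap, at 205, 113 and 285 CPM across CONTROL and 97.8, 103 and 84.9 CPM across HOXA13 (log2 fold change -1.08, adjusted p = 0.175, DESeq2 adjusted p = 0.0184). The activator genes Plau and Plat had overlapping groups and log2 fold changes of 0.65 and -0.42, and plasminogen itself, Plg, had 0 reads.

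Of 13 tested inhibitors from other families 5 were higher, 8 lower and 0 called by edgeR, while DESeq2 called 1, Spint1, a membrane-bound Kunitz inhibitor (adjusted p = 0.0253, higher). Wfdc2, an epithelial whey acidic protein, had 18.6, 129 and 104 CPM across CONTROL and 297, 422 and 459 CPM across HOXA13 (log2 fold change 2.22, adjusted p = 0.158), and Cst6, cystatin M/E, had 0.426, 0.800 and 1.42 CPM across CONTROL and 3.30, 2.46 and 2.85 CPM across HOXA13 (log2 fold change 1.69, adjusted p = 0.394). Both were without overlap. All 17 simple epithelium markers were higher in HOXA13, 14 of them without overlap, with 0 called by edgeR and 3 by DESeq2. Over all genes 11.5% of those tested were higher without overlap, and DESeq2 called 5.05%. Cdh1, which encodes E-cadherin, a protein used for the sort, had 192, 1292 and 702 CPM across CONTROL and 1732, 1690 and 1893 CPM across HOXA13. The stratified epithelium markers summed to 69.4, 184 and 105 CPM across CONTROL and 263, 191 and 186 CPM across HOXA13, and 0 of the 9 tested were called. The intestinal epithelium markers summed to 26.9, 146 and 44.3 CPM across CONTROL and 194, 101 and 98.3 CPM across HOXA13. Of the 8 tested 7 were higher, 3 of them without overlap, and 1 was lower, with 0 called by edgeR and 3 by DESeq2. The part of these epithelial levels in the increase of Klk15, Klk1b22, Spink6 or Serpinb7 was not tested.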

How the data were processed

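Poly-A RNA of 6 libraries (3 CONTROL, 3 HOXA13) was sequenced on a stranded kit. The authors deposited 1 list of raw counts by gene symbol for each sample. Per the submitters' processing notes, the tools were bcl2fastq 2.17, TopHat2 2.0.14 and HTSeq 0.6.1p1 with build mm9. The annotation, the strand option and the handling of reads with several alignments are not given in the sources used here. Tests were run with edgeR 4.0.16 under R 4.3.3 (filterByExpr by group, minimum count 10, minimum total 15; TMM scaling; glmQLFit and glmQLFTest, earlier quasi-likelihood method, group alone), with Benjamini-Hochberg adjustment over all 13600 genes tested at 0.05, after a test on simulated data. DESeq2 1.42.0 and limma 3.58.1 were alternatives. The p-values measure the spread between these samples. CPM are TMM-normalised; CPM per kilobase used summed exon length of GENCODE M1 (mm9), which also gave positions. Intervals of count ratios (95%) cover counting error only. Promoters came from RefSeq (GRCm38.p6), matched by symbol for 79 of 102 members. The chromosome offset takes the median shift of each chromosome off its genes.

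Members and gene lists were chosen with earlier results of these data known. The text names every called member, per family and direction the 5 largest fold changes without overlap at 1 CPM or more, per family the 3 most abundant members, preset members (Klk15, Spink6, Klk7, Serpinb13, Klkb1), and per pathway list the called genes and 2 largest changes without overlap. Other named genes were chosen after their values were seen. The values of 1 member are not reported here.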

Additional observations from a re-analysis of the deposited data

How the results depend on the processing

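Klk15, Klk1b22, Spink6 and Serpinb7 stayed higher and Serpinb9b lower in HOXA13 in every alternative run for them, but the calls depended on the setting. Against 2 members higher and 0 lower, DESeq2 gave 4 and 1, limma voom with sample quality weights 4 and 1, and the absence of a filter 3 and 1, where the calls over all genes were 722 of 14298, 2101 of 13600 and 163 of 17697. RLE scaling left 1 higher, with 34 calls over all genes. A mean of at least 50 counts, the chromosome offset and the replicate block each left 0. In that order they called 9 of 11292, 1 of 13600 and 0 of 13600 genes. Leaving out 1 library gave 0 to 5 higher and 0 to 3 lower. The most calls came without CONTROL replicate 2 (5 higher, 3 lower, and 2006 calls over all genes instead of 42). Each other fit without 1 library called 0 to 7 genes in all. Against 1 kallikrein called, DESeq2, limma voom and no filter gave 2 each, and a mean of at least 50 counts, the replicate block and the chromosome offset 0, with 0 to 3 across the fits without 1 library. Against 1 Spink gene, RLE scaling, a mean of at least 50 counts, the replicate block and the chromosome offset gave 0, and the fits without 1 library 0 to 1. Against 0 serpins, DESeq2 and limma voom gave 2 and no filter 1, with 0 to 4 without 1 library. Of the pathway genes 1 was called, 8 in DESeq2, 0 with the replicate block and 0 to 20 without 1 library. The kallikrein median log2 fold change of 2.12 was 1.06 in DESeq2, 3.30 in limma voom, 0.67 without a filter and 1.05 under the limit of 50 counts on the mean, and 0.99 to 4.31 without 1 library. The Spink median of 4.08 was 1.40, 4.35, -1.01 and 6.72 in the same settings, 4.42 with the replicate block and 1.10 to 5.89 without 1 library. The serpin median of -0.16 was -0.70 in DESeq2, -0.77 where the mean count had to reach 50 and -0.73 under the chromosome offset, and -0.84 to -0.10 without 1 library. These medians cover different genes under each filter. Serpine2 changed sign without CONTROL replicate 3, and Serpinb6a without HOXA13 replicate 2 or 3, with ranges over the fits without 1 library of -0.41 to 0.068 and -0.034 to 0.16 on the log2 scale. Otherwise the cause was not tested. No sign of pairing by replicate number was seen. The deviations of samples that share a number correlated at -0.128 on average (range -0.271 to 0.0979), against 0.0724 for different numbers. Of 6 samples 1 correlated best with its own number. This cannot decide whether samples were paired, since deviations taken from the mean of each group tie these averages to each other. The count of 9 members without overlap stayed at 9 with RLE or total count scaling and was 10 without a filter. Depth limits the CONTROL level of Klk15, Klk1b22 and Spink6, which rests on 2, 1 and 5 reads.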
